A study of Saccharomyces cerevisiae with 74 samples.

Results

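Cryptic unstable transcripts (CUTs) are short noncoding RNAs of Saccharomyces cerevisiae that nuclear surveillance normally removes soon after they are made. CUTs commonly arise from bidirectional promoters or in antisense orientation to genes. The Nrd1-Nab3-Sen1 complex ends their transcription, the TRAMP complex adds a short adenosine tail with the poly(A) polymerase Trf4 or Trf5, and the nuclear exosome with Rrp6 degrades them. A CUT that escapes to the cytoplasm can meet the decay machinery of mRNAs: the cytoplasmic exosome with the helicase Ski2, and the exonuclease Xrn1, which digests decapped RNA.

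The features described here were all those under the heading CUTs in the authors' read tables of poly(A)-selected RNA that averaged at least 10 reads over the 18 RNA-seq libraries. Of 902 CUTs listed, 636 reached that mean. ST1815 and ST6223, each at a mean of 10 reads, lay just inside it, and ST1261 and ST0749, each at 9.94, just outside. The mean runs over all conditions, so a CUT that was high in a single condition could enter on that condition alone. CUTs carry ST numbers in the files, with a length but no position, so neighbouring or overlapping genes were not examined and no CUT sequence was available to this report. Lengths ran from 106 to 3434 nt with a median of 426 nt.

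The study asked how yeast represses translation within minutes of glucose withdrawal or heat shock. All RNA-seq strains were haploid cells of the BY4741 background (his3, leu2, met15 and ura3 mutant) grown at 30 °C in synthetic medium lacking tryptophan with 2% glucose. The wild-type (wt) groups were control (libraries A, B and H), glucose withdrawal for 16 min into 2% glycerol and 2% ethanol (GE, libraries C and D), heat shock at 42 °C for 16 min (libraries E, F and I), and the same heat shock with cycloheximide, a drug that arrests elongating ribosomes, at 0.1 mg/mL (CHX, libraries J and O). The 2 deletion strains, 1 strain each, were deltaSki2 (control K and P, 42 °C L and Q) and deltaXrn1 (control M and R, 42 °C N and S), and neither was combined with cycloheximide or glucose withdrawal. Control cells were filtered directly and were not moved to fresh medium, so stress and medium transfer cannot be told apart in the RNA-seq. CRAC, sequencing of RNA crosslinked by UV to a tagged protein, covered eIF4A, eIF4B and Ded1, the RNA helicases and cofactor that assist ribosome scanning, each in its own tagged strain under control, mock transfer for 16 min, glucose withdrawal for 30 s or 16 min and heat shock for 16 min. For eIF4B it also covered heat shock with cycloheximide, and 4 libraries came from untagged cells.

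Each RNA-seq library held 27079139 to 47531279 counted reads, of which 1.77% to 2.79% came from Schizosaccharomyces pombe RNA spiked in at 2%. Every level below is a scaled read count, reads divided by the library's S. pombe reads and multiplied by the mean S. pombe total. The spike went into RNA already purified, so a level is read relative to the total RNA of its sample, and fewer cells and less RNA per cell cannot be told apart. SKI2 fell to 4.32 to 14.3 scaled reads in the deltaSki2 libraries against 1611 to 5337 elsewhere, and XRN1 to 54.5 to 267 in deltaXrn1 against 5437 to 16388. The genes MFA1, MFA2, STE2 and BAR1 of mating type a were detected in every library, and so was STE3 of the opposite type, at 58.6 to 1301 scaled reads. Library D held 15.4% rRNA reads against at most 1.96% in any other.

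CUTs were a minor class of this RNA. Per kb of feature the median CUT had 83.0 scaled reads averaged over the libraries, against 202 for stable unannotated transcripts (SUTs) and 1141 for protein-coding genes. A few members carried much of the class: ST5010 (146 nt) held 14.5% of all member reads, the 12 most abundant held 37.2% and the top 100 held 67.9%. ST5010 also had the most reads per distinct cDNA, 10.8 against a median of 1.17. Reads were present in all 18 libraries for 619 of the 636.

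Summed over the 636 members, wt controls held 42447, 43794 and 42888 scaled reads in A, B and H. Glucose withdrawal gave 56403 and 44932, and heat shock 46067, 39373 and 56310 in E, F and I, a range that overlaps the controls. Heat shock with cycloheximide gave 122334 and 98393, 2.34 times the mean of heat shock alone. The deltaXrn1 controls held 73277 and 78220, 1.76 times the wt mean, and fell to 38179 and 49823 at 42 °C. The deltaSki2 libraries held 47620 and 45239 unstressed and 55887 and 44600 at 42 °C. Cycloheximide with heat and unstressed loss of Xrn1 thus gave the highest sums, and both stood clear of their wt reference libraries. As a share of all S. cerevisiae reads the order was the same at the top: 0.291% ± 0.0527 (SD, n = 2) for CHX and 0.205% ± 0.00577 (SD, n = 2) for deltaXrn1 controls, against 0.123% ± 0.00723 (SD, n = 3) for wt controls and 0.174% ± 0.0167 (SD, n = 3) for wt heat shock.

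**Figure D1:**
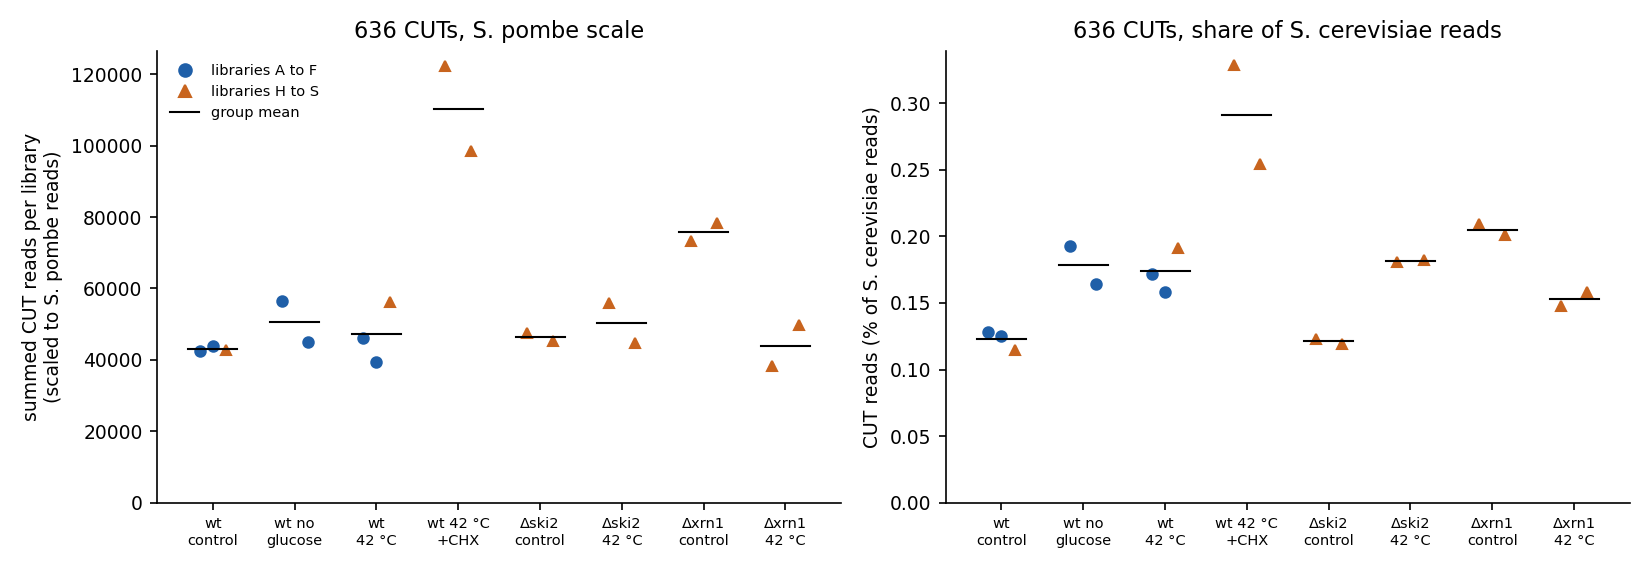
Summed CUT level in the 8 groups of RNA-seq libraries, 1 point per library (circles A to F, triangles H to S) with the group mean as a bar, as scaled reads and as a percent of S. cerevisiae reads. The CHX libraries (122334 and 98393) and the deltaXrn1 controls (73277 and 78220) lie above the wt controls (42447 to 43794), and the wt heat shock libraries (39373 to 56310) overlap them.

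Single members were compared with edgeR's quasi-likelihood test over all 18 libraries and 8102 features, with Benjamini-Hochberg adjustment over all features, and called at an adjusted p below 0.05. Fold changes are log2 with their SE. The comparisons share libraries (wt control and wt 42 °C each serve several), so their values stand side by side and their likeness is not a result. A second scale, TMM, sets the bulk of features to no change; it moved the median of all features by 0.82 for heat shock, -1.08 for cycloheximide, -0.51 for xrn1 deletion without stress, -0.40 for xrn1 deletion in heat shock, 0.12 for glucose withdrawal, -0.15 for unstressed ski2 deletion and 0.11 for the difference in heat response between deltaXrn1 and wt.

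In wt heat shock, 130 members rose and 260 fell, with 18.6% and 57.9% of all features called in those directions. Under TMM the calls were 247 higher and 144 lower, and all 130 raised members stayed raised, as 144 of the lowered stayed lowered, and 1 lowered member turned raised. The median member changed by -0.48, the median of all features by -0.69 and that of SUTs by -0.22; under TMM the median member was at 0.34. Among the raised members, 111 rose over 2-fold and 23 over 8-fold. The wt control and heat libraries lettered A to F gave 100 raised and 299 lowered (median -0.69). Those lettered H to S were just 1 control (H) and 1 heat library (I), between which the median member changed by -0.05. Library I was the highest of the 3 heat libraries for 118 of the 130 raised members and for 419 of all 636.

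ST6544 (938 nt) had the largest fitted rise of the separated members after ST5938. It had 21.3, 19.8 and 22.4 scaled reads in the wt controls and 1201, 740 and 3445 in wt heat shock (6.40 ± 0.36, adjusted p = 1.2e-22). Glucose withdrawal gave 129 and 94.3, and heat with cycloheximide 11630 and 7224, the highest value of any member in J and the next after ST5010 in O. No control library reached the lowest heat library for this CUT.

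ST4970 (714 nt) rose from 17.7, 30.2 and 8.52 to 1015, 736 and 1729 scaled reads (5.96 ± 0.30, adjusted p = 1.6e-24), with 187 and 127 after glucose withdrawal. ST3246 (1042 nt) rose from 9.23, 5.82 and 22.4 to 605, 436 and 1100 (5.85 ± 0.32). ST2136 (1330 nt) rose from 86.6, 77.9 and 76.7 to 818, 714 and 1593 (3.69 ± 0.24). These members were likewise separate between control and heat in every library, as were 60.2% of all members and 77.9% of features. Library I was the highest heat library for each. ST6544, ST4970 and ST3246 were picked from the separate members, so their separation was set by the choice.

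ST5938 (330 nt) held 1 read in the 3 wt controls together and 20.8, 10.6 and 140 scaled reads in heat shock, so no fold is given. ST4885 (618 nt) was more even between heat libraries, at 2202, 1764 and 2019 against 144, 141 and 186 (3.67 ± 0.18). ST7076 (178 nt) rose from 744, 764 and 758 to 3850, 2887 and 2795 (adjusted p = 3.2e-16), and ST6908 (658 nt) from 341, 416 and 428 to 1083, 755 and 1436 (1.47 ± 0.19).

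The abundant members moved in different directions. ST5010 read 9231, 9021 and 9607 in controls and 11158, 9679 and 8715 in heat shock, a change of 0.09 ± 0.17 that did not pass the test (0.91 and called higher under TMM). ST4102 (194 nt) fell from 2597, 2726 and 2735 to 386, 296 and 347 (-2.97 ± 0.18). ST0156 (2114 nt) fell from 872, 868 and 781 to 303, 320 and 228 (-1.56 ± 0.17). ST2421 (2162 nt) fell from 976, 985 and 458 to 337, 392 and 246 (-1.31 ± 0.21). ST4185 (242 nt) was at -0.92 and ST6675 (546 nt) at -0.52 on the S. pombe scale, whereas under TMM ST2421 (-0.50) and ST4185 (-0.10) were not called and ST6675 was called higher (0.30).

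The steepest falls with separate groups were in ST1557 (28.4, 20.9 and 17.0 to 0.833, 0 and 2.75), ST6353 (517, 470 and 660 to 41.7, 21.3 and 39.4, -4.00 ± 0.25), ST0108 (33.4, 38.4 and 44.7 to 1.67, 3.55 and 1.83, -3.97 ± 0.45) and ST0678 (23.4, 19.8 and 42.6 to 2.50, 0.887 and 1.83, -3.93 ± 0.49). ST1557, ST0108 and ST0678 had at most 3.55 scaled reads in any wt heat library, and ST6353 kept at least 21.3.

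**Figure D2:**
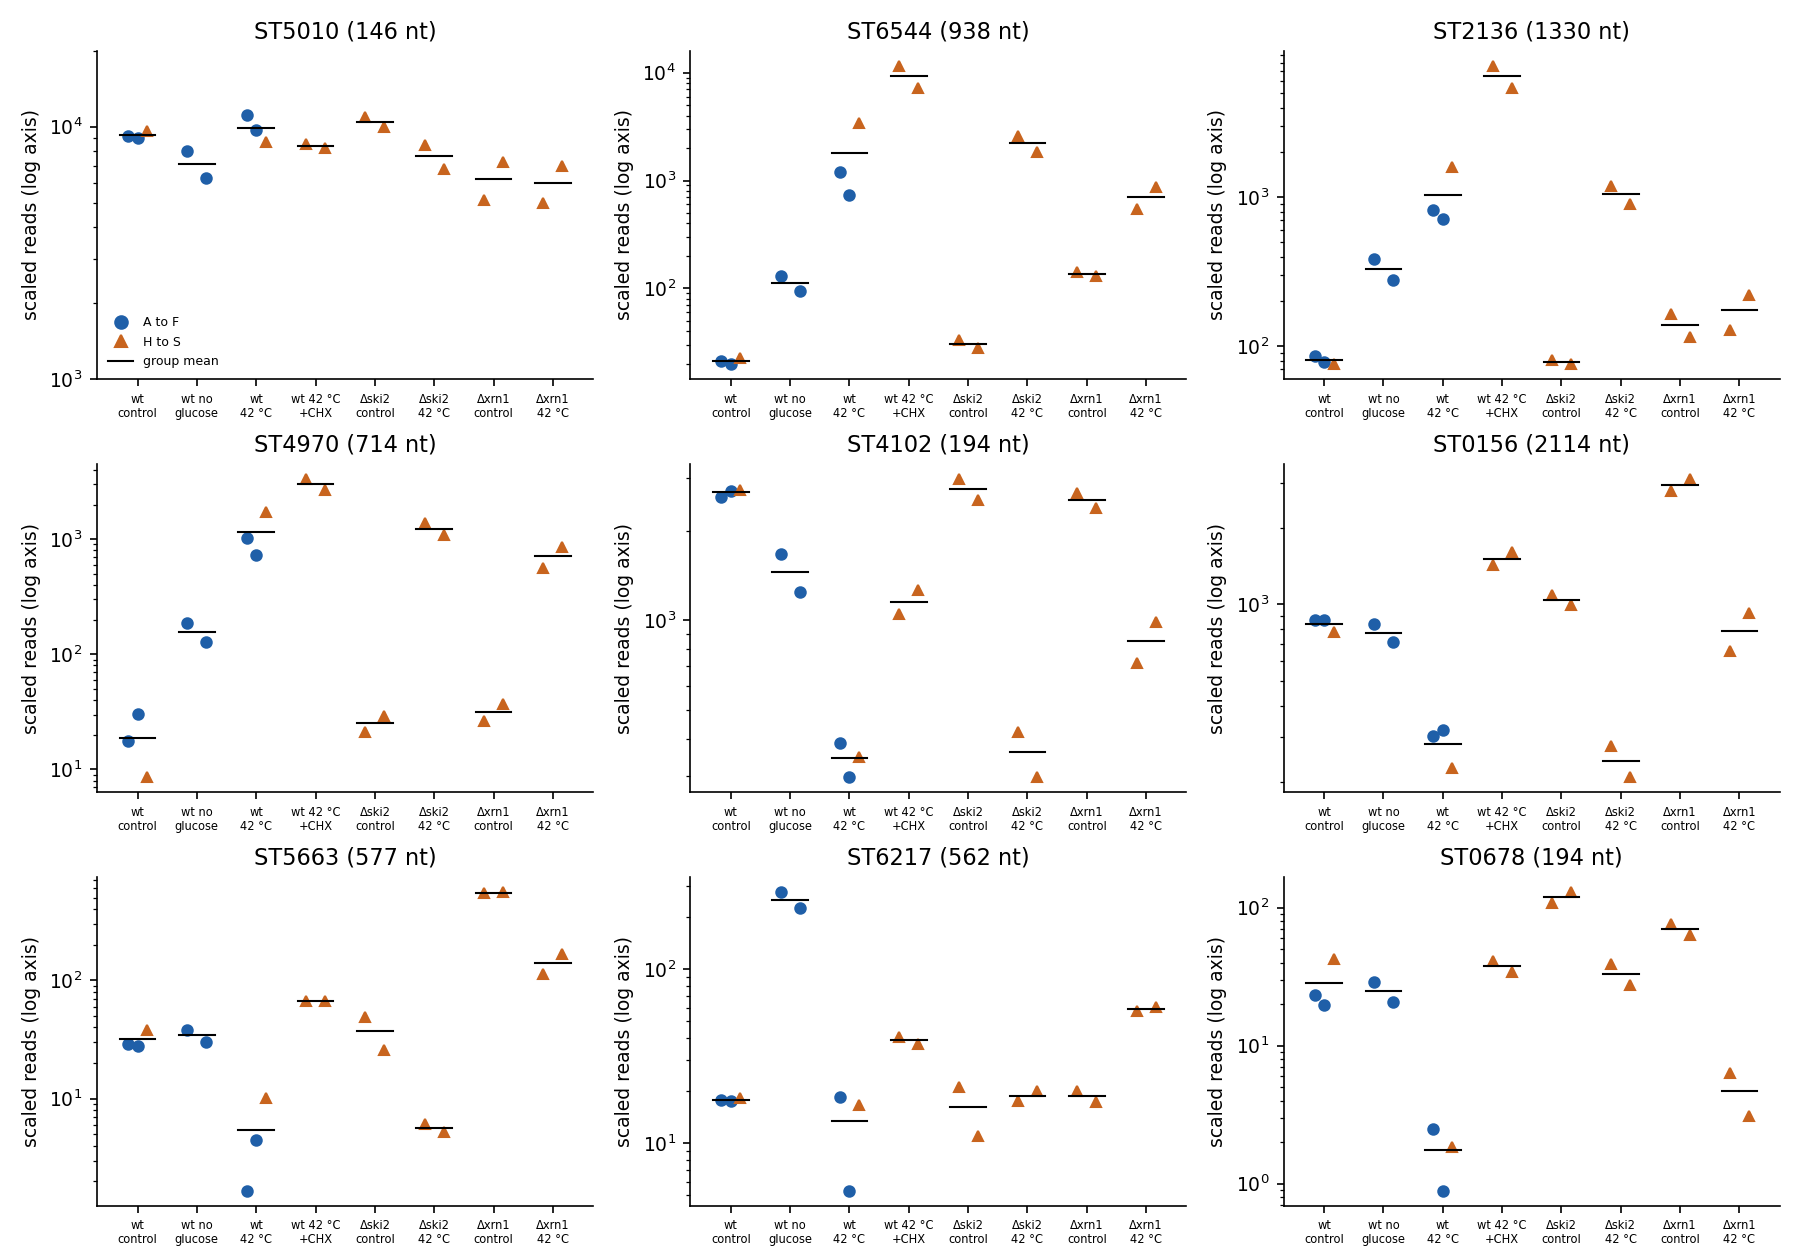
Scaled reads of 9 CUTs in each RNA-seq library on a log axis, by group, 1 point per library. ST6544, ST2136 and ST4970 rise from at most 86.6 in wt controls to at least 714 in wt heat shock, ST5010 stays between 4990 and 11158 everywhere, and ST4102 and ST0156 fall in heat shock.

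After glucose withdrawal, 276 members rose and 51 fell, where 22.5% of all features were called higher and 33.2% lower. The median member rose by 0.71 (0.82 under TMM), against -0.14 for all features, 0.33 for SUTs and -0.26 for protein-coding genes. Library C was above D for 232 of the 276 raised members and for 521 of all 636. Without C the raised count was 172 and without D, the library with 15.4% rRNA, the lowered count was 25, with only 1 glucose library left in each case. Libraries A to F alone gave 297 raised and 63 lowered (269 and 51 shared with the full fit).

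ST6217 (562 nt) was raised by glucose withdrawal and not called in wt heat shock: 17.7, 17.5 and 18.1 scaled reads in controls, 276 and 225 after glucose withdrawal (3.81 ± 0.32, adjusted p = 1.1e-14), and 18.3, 5.32 and 16.5 in heat shock. ST0679 (722 nt) rose from 5.68, 10.5 and 9.58 to 195 and 155 (4.39 ± 0.36), and ST5046 (338 nt) from 3.55, 2.33 and 0 to 47.2 and 53.9 (4.47 ± 0.55). ST0679 reached 15.0, 11.5 and 29.3 in heat shock. ST4362 (282 nt) had 1 control read in all and 21.9 and 12.4 scaled reads after glucose withdrawal, and ST5938 reached 6.12 and 8.29. ST0280 (378 nt), named here after its values were seen for its CRAC signal, was raised by both stresses: 22.7, 25.6 and 13.8 in controls, 307 and 196 after glucose withdrawal (3.59 ± 0.32) and 240, 169 and 474 in heat shock (3.81 ± 0.30).

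Members lowered by glucose withdrawal changed less. ST2730 (250 nt) fell from 46.8, 59.3 and 25.6 to 7.87 and 6.22 (-2.61 ± 0.47), ST3777 (178 nt) from 46.8, 50.0 and 34.1 to 15.7 and 4.14 (-2.08 ± 0.46), ST2138 (146 nt) from 88.0, 91.9 and 83.1 to 38.5 and 18.6 (-1.60 ± 0.32), and ST4469 (146 nt) from 39.8, 40.7 and 35.1 to 16.6 and 7.25 (-1.65 ± 0.46; -1.21 and no longer called without D). When the members were split by length into 3 sets of like size, 75 rose and 34 fell in the shortest set (106 to 314 nt), which holds all 4 of these, and 100 rose and 8 fell in the longest set (562 to 3434 nt).

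Cycloheximide during heat shock raised the largest number of CUTs. Against heat shock alone 522 members rose and 7 fell, beside 79.4% and 2.43% of all features, so most of the transcriptome moved the same way. The median member rose by 1.60, all features by 1.13, SUTs by 1.52 and protein-coding genes by 1.02. Under TMM 225 of the 522 stayed raised, 3 turned lowered, 49 were lowered in all and the median member was at 0.54. Against the wt control, 368 members were higher with heat and cycloheximide and 81 lower, beside 44.3% and 26.8% of features, with a median of 1.13. Both cycloheximide libraries are lettered H to S, and against heat library I alone 420 rose and 3 fell (median 1.28, 414 shared with the full fit).

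ST2136 read 818, 714 and 1593 in heat shock and 7641 and 5426 with cycloheximide (2.65 ± 0.22, adjusted p = 7.9e-15), and ST6544 rose by 2.39 ± 0.28. ST0156 rose from 303, 320 and 228 to 1427 and 1600 (2.41 ± 0.19), above its unstressed level of 781 to 872. ST4102 rose from 386, 296 and 347 to 1047 and 1260 (1.75 ± 0.18), below its unstressed 2597 to 2735. The first pair were raised by heat alone and the second pair were lowered by it, and all 4 rose with the drug.

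The largest increases were in ST0678 (2.50, 0.887 and 1.83 to 40.8 and 34.4, 4.33 ± 0.52), ST5458 (0.833, 1.77 and 2.75 to 44.5 and 19.8, 4.11 ± 0.58), ST4237 (20.0, 16.0 and 8.25 to 240 and 239, 4.00 ± 0.30) and ST1540 (2.50, 1.77 and 1.83 to 34.6 and 23.8, 3.76 ± 0.56). ST4237, of 474 nt, had 101, 120 and 119 unstressed. The few lowered members included ST4630 (46.7, 39.0 and 53.1 to 18.5 and 11.9, -1.59 ± 0.39), ST5721 (52.5, 34.6 and 37.6 to 7.41 and 17.2, -1.76 ± 0.43), ST1635 (-0.90) and ST0406 (-0.72); the last 2 lost the call against library I alone. ST5010, at 8563 and 8248, was not called (-0.23; -1.31 and called lower under TMM). ST4885, one of the strongly heat-raised members, was slightly lower with the drug, 1514 and 1412 against 1764 to 2202 (-0.45 ± 0.18, adjusted p = 0.019).

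Loss of Xrn1 in unstressed cells raised 372 members and lowered 12, where 47.1% of all features were called higher and 9.31% lower. The median member rose by 1.13, SUTs by 1.57, protein-coding genes by 0.32 and all features by 0.48. Under TMM 267 were raised, all among the 372, 46 were lowered and the median member was at 0.62. Against library H alone as wt control 329 were raised and 6 lowered (median 1.26), and leaving out any library in turn gave 312 to 355 raised; without R 6 were lowered.

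ST5663 (577 nt) rose from 29.1, 27.9 and 38.3 to 546 and 557 scaled reads (4.12 ± 0.30, adjusted p = 1.2e-16). ST2163 (706 nt) rose from 13.5, 19.8 and 17.0 to 279 and 240 (3.97 ± 0.30), ST3505 (290 nt) from 25.6, 33.7 and 44.7 to 436 and 468 (3.72 ± 0.29), and ST4394 (210 nt) from 4.97, 5.82 and 3.19 to 64.1 and 46.3 (3.54 ± 0.44). Both deltaXrn1 libraries lay above every wt control for each of these, which were picked from the members with separate groups. Of all members 76.1% had separate groups, against 73.3% of features.

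Among abundant members ST0156 rose from 872, 868 and 781 to 2791 and 3111 (1.81 ± 0.18) and ST2421 from 976, 985 and 458 to 1662 and 2197 (1.26 ± 0.22). ST6908 rose from 341, 416 and 428 to 1352 and 1145 (1.66 ± 0.21). ST4102, at 2670 and 2377 against 2597 to 2735, was not called (-0.60 and called lower under TMM). ST6675 fell from 1686, 1703 and 1841 to 627 and 826 (-1.26 ± 0.19), ST7076 from 744 to 764 down to 402 and 533 (-0.69 ± 0.19), and ST5010 to 5148 and 7230 (-0.59 ± 0.19, adjusted p = 0.0086). Without ST5010 the summed level in deltaXrn1 controls was 2.06 times that of wt controls.

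The steepest falls in deltaXrn1 were in ST5883 (56.1, 57.0 and 22.4 to 16.6 and 15.9), ST0805 (44.0, 59.3 and 47.9 to 16.6 and 19.9, -1.46 ± 0.36), ST4255 (125, 116 and 109 to 43.1 and 46.3, -1.38 ± 0.29) and ST2434 (49.0, 51.2 and 44.7 to 21.0 and 18.5, -1.28 ± 0.39). ST5883 lost its call against library H alone (-0.46), and ST2434 without library R (-1.20). The share of members raised ran with length: 50.0% of the shortest set, 56.7% of the middle set (322 to 554 nt) and 69.1% of the longest, with medians of 0.98, 1.13 and 1.32, and 11 of the 12 lowered members were in the shortest set. Split by mean level in the same way, the highest set had 154 raised members and the lowest 97. That mean includes the deltaXrn1 libraries, and more reads make a call easier, so these counts are not read as an effect of level.

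The members raised by unstressed loss of Xrn1 and those raised by cycloheximide in heat shock come from separate libraries. They share 339 members, which is 91.1% of the 372 and 64.9% of the 522, where 82.1% of all members rose with cycloheximide.

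**Figure D3:**
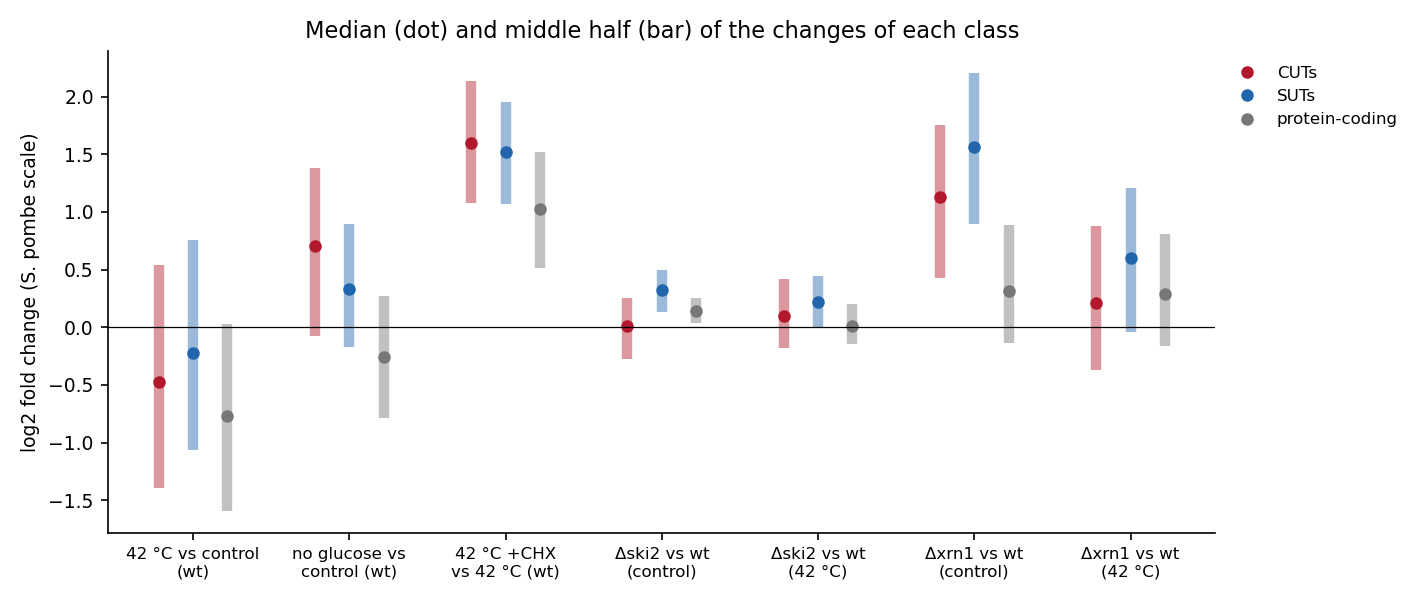
Median log2 fold change (dot) and interquartile range (bar) of CUTs, SUTs and protein-coding genes in 7 comparisons on the S. pombe scale. CUTs lie above protein-coding genes after glucose withdrawal (0.71 against -0.26), in cycloheximide (1.60 against 1.02) and in unstressed deltaXrn1 (1.13 against 0.32).

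At 42 °C the loss of Xrn1 had a smaller and more divided effect. Against wt heat shock 149 members were higher and 65 lower, beside 38.6% and 11.4% of all features; under TMM 102 were higher and 128 lower, and the median member moved from 0.21 to -0.18. Against heat library I alone 91 were higher and 126 lower (median -0.05). Without S 95 were higher, and without N 29 were lower. Of the 372 members raised in unstressed deltaXrn1, 129 were also higher at 42 °C (86.6% of the 149, where 58.5% of all members were raised in unstressed deltaXrn1) and 20 were lower.

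ST5663 was again the most raised, from 1.67, 4.43 and 10.1 to 113 and 166 (4.68 ± 0.37). ST4531 (154 nt) went from 29.2, 20.4 and 13.7 to 186 and 251 (3.36 ± 0.29), ST0128 (850 nt) from 9.998, 16.0 and 20.2 to 144 and 170 (3.35 ± 0.29) and ST4237 from 20.0, 16.0 and 8.25 to 117 and 167 (3.24 ± 0.30). ST4102 was at 720 and 984 against 296 to 386 (1.31 ± 0.18). Lower in heated deltaXrn1 were ST2730 (28.3, 31.0 and 47.6 to 1.58 and 2.08, -4.22 ± 0.61), ST2136 (818, 714 and 1593 to 128 and 222, -2.58 ± 0.26, adjusted p = 3.1e-12), ST2655 (13.3, 10.6 and 22.9 to 3.95 and 1.04, -2.49 ± 0.63) and ST0805 (57.5, 63.9 and 43.1 to 11.0 and 9.34, -2.40 ± 0.37). ST6675 fell to 256 and 392 from 994 to 1433 (-1.91 ± 0.20). These named members were separate between the 2 strains at 42 °C, as were 44.3% of all members and 59.9% of features. All but ST4102 and ST6675 were picked from the separate members, so separation was set by the choice.

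The heat response itself differed between the strains, tested as the interaction of strain and heat. It was lower in deltaXrn1 for 175 members and higher for 10, where 17.4% and 9.47% of all features were called; the median member differed by -0.87, SUTs by -0.97, protein-coding genes by -0.07 and all features by -0.17. Under TMM 171 and 16 were called (153 and 10 shared) and the median was -0.74. Against H and I alone as wt libraries 210 and 8 were called (147 and 6 shared, median -1.25). Without N 101 were lower, without S 6 were higher, and over all 10 libraries left out in turn the median ran from -1.07 to -0.58.

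The 175 were mostly members that heat left alone or raised in wt: 86 rose, 8 fell and 81 were not called, with a median of 0.70. In wt heat, 20.4% of all members were called higher and 40.9% lower (18.6% and 57.9% of features). In deltaXrn1 the 175 fell by a median of 1.20 in heat, with 15 raised, 107 lowered and 53 not called. Before the stress 148 of the 175 were already higher in deltaXrn1 than in wt (median 1.61), where 58.5% of all members and 47.1% of features were. After it the median difference of the 175 between strains was -0.35. These values use the same libraries as the interaction and describe it. Over all members, heat raised 39 and lowered 422 in deltaXrn1 (11.5% and 66.9% of features), with a median of -1.39.

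ST6544 shows the pattern at high level. It went from 143 and 130 scaled reads to 541 and 864 in deltaXrn1 and from 19.8 to 22.4 up to 740 to 3445 in wt, a difference in response of -4.04 ± 0.49 (adjusted p = 1.8e-08). ST2136, which rose by 3.69 in wt, read 164 and 115 before and 128 and 222 after heat in deltaXrn1 (0.31 ± 0.28, not called), a difference of -3.38 ± 0.36. ST3246 went from 90.7 and 58.2 to 561 and 637 (difference -2.85 ± 0.46). ST4970 went from 26.5 and 37.1 to 563 and 857, a rise of 4.49 ± 0.34 that was closer to the wt response (difference -1.47 ± 0.47). ST6544 was called higher than wt in deltaXrn1 before the stress (2.68 ± 0.39) and lower after it (-1.36 ± 0.30), and ST3246 was called higher before it (2.60 ± 0.38) and not called after it.

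ST6018 (122 nt) rose in wt from 5.68, 4.65 and 8.52 to 13.3, 8.87 and 29.3 and fell in deltaXrn1 from 24.3 and 19.9 to 2.37 and 5.19 (difference -4.01 ± 0.77). ST1895 (194 nt, -3.70 ± 0.98, 0 to 3.19 in wt controls) and ST3042 (314 nt, -3.65 ± 0.81) were covered by few reads, and lost the call without M and without R. In the other direction ST5120 (410 nt) fell in wt from 51.8, 55.8 and 59.6 to 6.67, 6.21 and 2.75 and in deltaXrn1 from 45.3 and 39.7 to 21.3 and 23.9 (2.46 ± 0.55). ST6217 did not change in wt heat (18.3, 5.32 and 16.5) and rose in deltaXrn1 from 19.9 and 17.2 to 57.6 and 60.2 (2.06 ± 0.54). ST2411 (1.57 ± 0.56) and ST0652 (1.56 ± 0.48) also fell less in deltaXrn1. Of these 4, ST2411 lost the call against H and I alone, under DESeq2 and without B, F, N, R or S (1.403 to 1.606), ST6217 against H and I alone, and ST0652 without R or S.

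**Figure D4:**
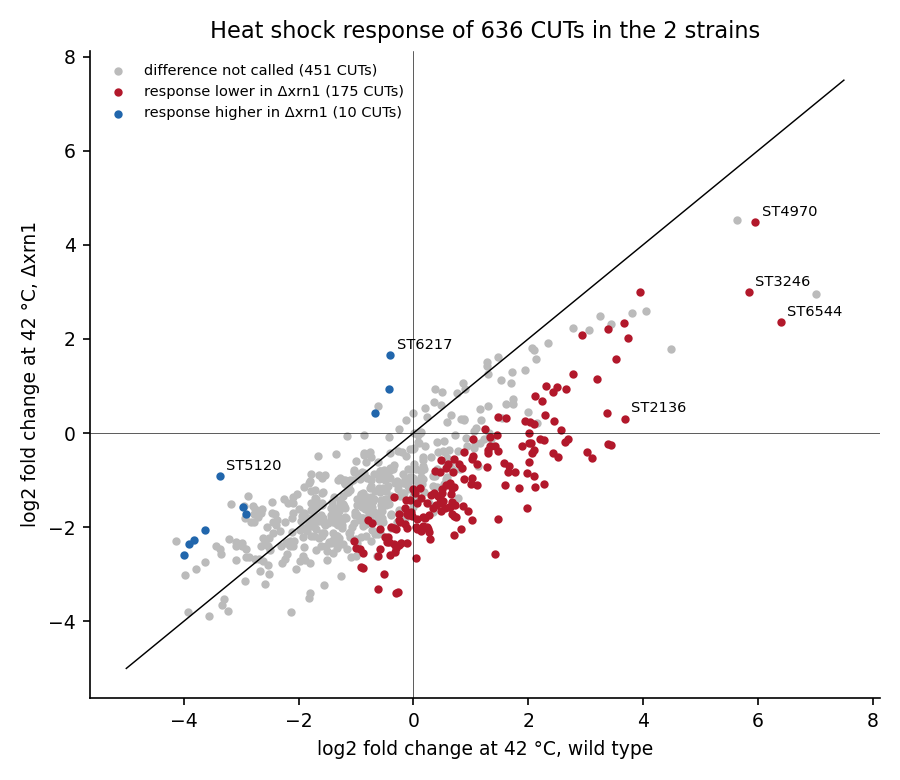
Log2 fold change of each CUT in heat shock in wt (horizontal) and in deltaXrn1 (vertical), with the 175 members whose response was lower in deltaXrn1 in red, the 10 whose response was higher in blue and the other 451 in grey. The red points lie below the line of equal change, around 0.70 in wt and -1.20 in deltaXrn1.

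Loss of Ski2 left nearly all CUTs without a call. In unstressed cells 1 member was higher and none lower by edgeR (21 and 24 at an unadjusted p below 0.05), with 0.111% and 0.0123% of features called. The exception was ST0678 (194 nt): 23.4, 19.8 and 42.6 in wt and 108 and 130 in deltaSki2 (2.06 ± 0.32, adjusted p = 7.8e-05), though against library H alone, its highest control, the change was 1.48 and not called. At 42 °C ST0678 read 38.8 and 27.6 in deltaSki2 against 2.50, 0.887 and 1.83 in wt (4.14 ± 0.51, adjusted p = 1.7e-07). ST0678 thus read higher in each deltaSki2 library than in wt at both temperatures. Its unstressed call was also lost with the library letters (A to F, H to S) as a term (1.54). ST0678 was higher with cycloheximide too, and in unstressed deltaXrn1 (76.3 and 63.5, 1.30 ± 0.33). It was not called in heated deltaXrn1, where 6.31 and 3.11 lay above every wt heat library.

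In heat shock 2 members were higher in deltaSki2 and 1 lower, beside 0.58% and 0.0864% of features. The other higher member, ST7240 (234 nt), read 68.3, 36.4 and 238 in wt heat and 310 and 262 in deltaSki2 (1.33 ± 0.34, adjusted p = 0.049), and the change was 0.26 against library I alone. ST5009 (266 nt) read 15.0, 16.0 and 3.67 in wt and 0 and 1.73 in deltaSki2. These counts turned on library I, the highest wt heat library for most members: without I 80 members were higher and 5 lower, and without E or F 1 was higher and none lower. Without I the wt heat libraries were lettered A to F and the deltaSki2 libraries H to S. Strain and library letters then cannot be told apart, so the 80 are not a count of Ski2 effects. The heat response did not differ between deltaSki2 and wt for any member by edgeR (18 higher and 4 lower at an unadjusted p below 0.05, and 13 higher without I), with 0% of features called. The 13 carry the same limit of library letters. Heat raised 149 and lowered 214 members within deltaSki2, beside 16.7% and 57.9% of features.

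The genes of the machinery that handles CUTs changed as well. Of 21 nuclear surveillance genes (Nrd1-Nab3-Sen1, TRAMP and exosome subunits), 19 fell and none rose in wt heat shock (19 fell and 2 rose under TMM), beside 57.9% of all features lower, with a median of -2.17. MTR4, the TRAMP helicase, went from 9424, 10338 and 8822 scaled reads to 612, 497 and 611 (-4.05), RRP6 fell by 3.04 and NRD1 by 2.67, while NAB3, at 4873 to 5805 in heat against 5773 to 5972, was not called (-0.16, adjusted p = 0.39; 0.67 and called higher under TMM). Glucose withdrawal lowered 17 and raised 1 under both scales (33.2% of features lower), among them AIR1 of TRAMP at -2.74, and cycloheximide in heat raised 19 (15 raised and 3 lowered under TMM), where 79.4% of features rose. In unstressed deltaXrn1 9 rose and 3 fell (47.1% and 9.31% of features), against 3 and 9 under TMM, with MPP6, an exosome cofactor, at 2.26.

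Of 14 cytoplasmic decay genes (Ski complex, decapping, nonsense-mediated decay and Xrn1), 13 fell and 1 rose in wt heat shock (8 and 3 under TMM), beside 57.9% and 18.6% of features, with a median of -1.38, and 8 fell and 1 rose after glucose withdrawal, beside 33.2% and 22.5%. In unstressed deltaXrn1 4 rose and 2 fell (2 and 10 under TMM), beside 47.1% and 9.31% of features, with UPF3 of nonsense-mediated decay at 2.50 and XRN1 itself among those lower. These are mRNA levels and say nothing of the proteins after 16 min. Whether they played a part in the CUT levels was not tested.

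CRAC gave few reads on CUTs. Tagged libraries held 183689 to 4385132 reads, and at least 1 CRAC read fell on 633 of the 636 members. Only members with enough reads entered the tests, 92 for eIF4A, 161 for eIF4B and 383 for Ded1, and values are reads per 1000000 counted reads (RPM), a share of the library. Untagged libraries held just 347 to 46692 reads in all, with 0, 235, 36 and 8 reads on CUTs. Their CUT share, 0 to 5033 RPM, was not below that of the tagged libraries, so the summed CRAC signal on CUTs cannot be told from background by its share. For a single CUT, 3 reads over the 4 untagged libraries would be 49.2 RPM. The absence of untagged reads on a CUT therefore says little about its background.

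Summed over members, eIF4B held 1792 ± 207 RPM (SD, n = 4) in controls, 373 ± 108 (n = 2) at 30 s and 850 ± 269 (n = 3) at 16 min of glucose withdrawal, 2454 ± 589 (n = 4) in heat shock and 4717 ± 743 (n = 2) in heat with cycloheximide. Ded1 held 3035 ± 520 (n = 3), 1255 ± 15.5 (n = 2), 1487 ± 541 (n = 3) and 3394 ± 878 (n = 3) in the first 4 conditions, and eIF4A 2410 ± 645 (n = 6), 1262 ± 605 (n = 3), 2568 ± 1268 (n = 4) and 2814 ± 1325 (n = 4). For eIF4B and Ded1 the glucose libraries all lay below the controls, and for heat shock the ranges overlapped the controls for every protein. The eIF4B cycloheximide libraries 97 and 99 and heat library 98 were counted on another annotation. There rRNA took 41.5% to 52.2% of counts, against 13.4% to 15.9% in eIF4B heat libraries 23, 56 and 75. RPM thus rests on unlike totals, so the group means of eIF4B with and without cycloheximide cannot be compared directly. On the shared annotation the only heat library, 98, held 2232 RPM, against 4192 and 5243 in 97 and 99.

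The CUTs with most control signal were ST5426, ST0129, ST2696, ST1268, ST0368 and ST5010. ST2696 (410 nt) was the most even, with 56.9, 100, 150 and 106 RPM in the eIF4B controls, 8.35 to 109 in the eIF4A controls and 17.3 to 32.8 in the Ded1 controls, and 0 in the untagged libraries. ST5426 (170 nt) had 47.9 to 346 RPM in the 6 eIF4A controls and 0 in all 4 heat shock libraries (adjusted p = 0.00022), while its RNA was not called in heat shock (26.6 to 47.7 scaled reads in controls, 23.1 to 36.7 in heat). It also had 600 RPM in 1 untagged library.

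By edgeR within each protein, heat shock raised 5 and lowered 1 CUT for eIF4A (1.09% and 5.85% of features), 20 and 3 for eIF4B (3.46% and 19.5%) and 9 and 11 for Ded1 (3.3% and 17.9%). The median CUT changed by -0.62, 0.16 and -0.40 against -1.87, -1.26 and -0.72 for all features. The eIF4B heat group includes library 98, counted on the other annotation. Both eIF4B counts were smaller without libraries 97, 98 and 99, as given below. Leaving out 1 library at a time gave 0 to 4, 7 to 16 and 2 to 8 raised, and the raised count moved by over 1.5 times without 9 of the 10 eIF4A libraries (all but 54), without eIF4B libraries 08, 21, 26, 71 or 75, or without Ded1 libraries 57, 60, 63 or 65. The lowered count moved as far without eIF4B libraries 23, 26, 56, 71 or 98 (0 to 4) and without Ded1 libraries 60, 65 or 68 (4 to 9). Raised by any protein were 30 members, of which ST0280 was raised for all 3 proteins and ST2136 and ST3246 for eIF4B and Ded1.

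ST2136 had 16.6, 22.3 and 0 RPM in the Ded1 controls, 19.1 and 0.447 after mock transfer and 161, 229 and 114 in heat shock (3.60 ± 1.05, adjusted p = 0.014). With eIF4B it had 1.84, 7.84, 1.14 and 10.01 in controls, 55.9, 169, 114 and 52.6 in heat shock (4.09 ± 0.91, adjusted p = 0.00079) and 390 and 465 with cycloheximide, and it had no read in the untagged libraries. ST0280 had 0, 9.08 and 0 RPM in the Ded1 controls and 40.6, 59.5 and 99.1 in heat shock, and with eIF4B at most 0.654 in controls and 0, 81.7, 48.8 and 70.9 in heat shock, with none in the untagged libraries. ST6544 rose for Ded1 from 9.72, 17.3 and 4.47 to 98.3, 132 and 53.0 (3.11 ± 0.84), with 257 RPM in 1 untagged library.

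ST3246 rose for Ded1 from 1.08, 0.413 and 2.98 to 181, 221 and 92.9 RPM (7.11 ± 0.98) and for eIF4B from 9.18, 0, 1.14 and 1.502 to 30.1, 54.4, 143 and 70.4 (4.85 ± 1.39). However, all 8 CUT reads of 1 untagged library of 5798 reads fell on ST3246, which is 1380 RPM there, and the other 3 untagged libraries had none. ST0721 (3.24, 21.5 and 73.0) and ST4237 (5.76, 13.2 and 59.6) had no Ded1 read in any heat shock library, and ST0128 went from 28.8, 16.5 and 43.2 to 1.53, 0.422 and 0.

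Set beside the RNA-seq, all 9 members raised for Ded1 in heat were also raised in RNA, where 24.3% of the 383 tested were. For eIF4B it was 14 of 20, with 1 lowered (42.2% of the 161 raised), and for eIF4A 2 of 5 (30.4% of the 92). The 20 rest on a heat group that includes library 98, counted on the other annotation. Of the 11 members lowered for Ded1, 10 were lowered in RNA, where 40.9% of all 636 members were. For Ded1 the RNA level thus moved with the CRAC signal in all but 1 of the called members, and its part in the CRAC change was not tested for any protein.

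Glucose withdrawal for 30 s lowered 5 CUTs for eIF4B (9.31% of features called in either direction) and 4 for Ded1 (8.25%), and for 16 min lowered 7 and raised 2 for eIF4B (18.4%) and lowered 2 for Ded1 (4.46%). ST2136 went from 16.6, 22.3 and 0 to 0 and 0 for Ded1 at 30 s, and ST0709 (426 nt) from 54.4, 31.4 and 0 to 0 and 0. ST6236 (610 nt) had 91.8, 5.88, 14.9 and 10.5 RPM with eIF4B in controls and none at 30 s or 16 min. Leaving out 1 library brought the lowered counts to as few as 0 for eIF4B at 30 s and 1 at 16 min and to 0 for Ded1 at both times, and every single library of these comparisons moved them by over 1.5 times except 65 at 30 s for Ded1. For eIF4A no CUT was called at 30 s (5 higher and 21 lower at an unadjusted p below 0.05, 0.552% of features called) or at 16 min (10 and 26, 0.178%). Mock transfer gave no call for eIF4A (8 and 9 unadjusted, 0%), eIF4B (11 and 11, 0.0302%) or Ded1 (10 and 5, 0%), and cycloheximide in heat none for eIF4B (16 and 0 unadjusted, 10.2%). The heat libraries of the cycloheximide comparison mix both annotations.

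**Figure D5:**
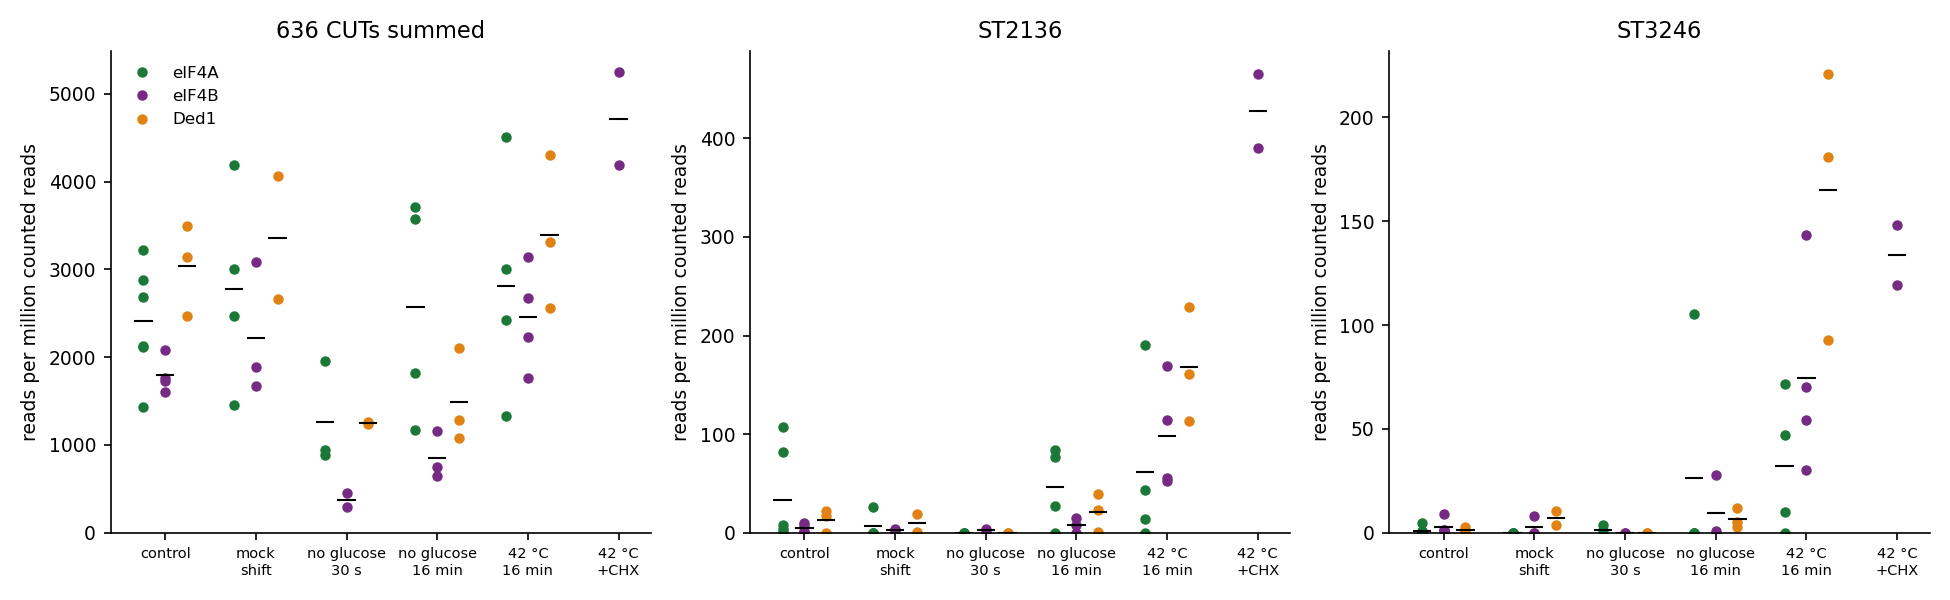
CRAC signal in RPM for the 3 tagged proteins, 1 point per library, summed over all CUTs and for ST2136 and ST3246. The summed signal of heat shock overlaps the controls, while ST2136 lies at 114 to 229 for Ded1 and 52.6 to 169 for eIF4B in heat shock against at most 22.3 and 10.01 in controls.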

How the data were processed

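RNA-seq measured poly(A)-selected, strand-specific single-end reads of 75 nt, in duplicate cultures per the study's methods, with the 2% S. pombe spike. The authors aligned reads with Novoalign to joined S. cerevisiae and S. pombe genomes without introns, and the deposited columns are read counts per feature and RPKM values from pyReadCounters; features with 0 reads are not listed. RPKM was used only to derive feature lengths. CRAC reads were trimmed with Flexbar and collapsed by random nucleotides by the authors, and reads with several positions were placed at random, so repeated features are uncertain. SAMtools and bedtools are also named in the submitters' processing notes. Rows without a feature name, at most 0.0088% of RNA-seq and 0.0181% of CRAC counts, were left out.

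Counts were read with Python 3.11.15, numpy 2.4.6 and pandas 2.3.3 and fitted with edgeR 4.0.16 in R 4.3.3 (glmQLFit and glmQLFTest, filterByExpr with a minimum count of 10 and a total of 15), with S. pombe totals as library sizes for RNA-seq and all counted reads for CRAC. DESeq2 1.42.0, TMM, no filter, the library letters as a term, subsets of libraries, distinct cDNAs and each library left out were alternatives; distinct cDNAs, libraries A to F alone and the sum without ST5010 were chosen after seeing the data. The fits were tested on simulated data. Precision is limited by 2 or 3 libraries per RNA-seq group.

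Named CUTs were the 12 with the highest mean scaled count, up to 4 called per direction and comparison with the largest change (among those with separate groups; for interactions among all called), the 6 with the highest mean RPM in tagged CRAC controls, up to 3 called per CRAC contrast, and 2 on each side of the 10-read limit. Other names are stated as chosen later. The members and gene lists were chosen with earlier results of these data known. One eIF4A library whose title gives 16 min and description 30 s of glucose withdrawal was placed at 30 s. The annotation was version 5.4, and 5.6 for 3 eIF4B libraries of heat shock with and without cycloheximide.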

Additional observations from a re-analysis of the deposited data

Results flagged for a closer look

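The heat shock response differed between deltaXrn1 and wt by the interaction term for 175 CUTs with a lower and 10 with a higher response in deltaXrn1. Among the named members the difference in response was -4.04 for ST6544, -4.01 for ST6018, -3.70 for ST1895 and -3.65 for ST3042. It was 2.46 for ST5120, 2.06 for ST6217, 1.57 for ST2411 and 1.56 for ST0652. ST2411 lost its call under DESeq2, against H and I alone and without B, F, N, R or S (1.403 to 1.606). ST1895, ST3042, ST6217 and ST0652 also lost the call under some alternatives, as given above. All 8 were picked because the test of the difference passed, so their sizes are those of the extremes among all members tested.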

How the results depend on the processing

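Counts are of CUTs called higher and lower. TMM in place of the S. pombe scale gave 247 higher and 144 lower for heat shock (median 0.34, of the opposite sign), 225 and 49 for cycloheximide, no lower for ski2 deletion in heat shock, 46 lower for unstressed and 128 lower for heated xrn1 deletion, and 16 higher for the xrn1 difference in heat response; in heat shock CRAC it gave 0 lower for eIF4B and 6 lower for Ded1. Libraries H to S alone gave 151 lower for heat shock, 3 lower for cycloheximide, 1 higher and 0 lower for ski2 deletion in heat shock, 6 lower for unstressed and 91 higher and 126 lower for heated xrn1 deletion. The library letters as a term gave 1 higher and 0 lower for ski2 deletion in heat shock and 98 lower for heated xrn1 deletion, DESeq2 0 lower and distinct cDNAs 1 higher for ski2 deletion in heat shock. With a minimum of 50 reads, which leaves 211 members, the counts were 70 and 87 for heat shock, 90 and 28 for glucose withdrawal, 179 and 3 for cycloheximide, 0 higher for unstressed and 1 and 0 for heated ski2 deletion, 151 and 6 for unstressed and 71 and 32 for heated xrn1 deletion, and 93 lower for the difference in response. In heat shock CRAC, no filter gave 20 higher for eIF4A and 5 lower for eIF4B, and leaving out libraries 97, 98 and 99, counted on the other annotation, gave 8 higher and 0 lower for eIF4B. As a share of S. cerevisiae reads the unstressed deltaSki2 sum was 0.987 times wt, against 1.08 times on the S. pombe scale. A minimum of 50 reads leaves fewer members to call; the cause of the other moves was not tested.

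Leaving out each library in turn gave 103 to 152 higher and 231 to 286 lower for heat shock, 172 to 263 and 25 to 47 for glucose withdrawal, 448 to 527 and 4 to 10 for cycloheximide (4 without E), 1 to 2 and 0 to 1 for unstressed ski2 deletion (2 and 1 without H), 1 to 80 and 0 to 5 for heated ski2 deletion, 312 to 355 and 6 to 13 for unstressed xrn1 deletion, 95 to 189 and 29 to 90 for heated xrn1 deletion, 6 to 14 and 101 to 216 for the xrn1 difference and 0 to 13 higher for the ski2 difference. The medians ran from -0.68 to -0.38 for heat shock, 0.52 to 0.82 for glucose withdrawal, 1.45 to 1.82 for cycloheximide, -0.0057 to 0.05 and -0.02 to 0.35 for unstressed and heated ski2 deletion, 1.08 to 1.17 and 0.0077 to 0.40 for unstressed and heated xrn1 deletion, -1.07 to -0.58 for the xrn1 difference and -0.01 to 0.31 for the ski2 difference. In CRAC the ranges were 0 to 4 higher and 1 to 1 lower for eIF4A in heat, 7 to 16 and 0 to 4 for eIF4B in heat, 2 to 8 and 4 to 9 for Ded1 in heat, 0 to 3 lower at 30 s and 0 to 2 higher and 1 to 3 lower at 16 min of glucose withdrawal for eIF4B, 0 to 4 lower at 30 s and 0 to 0 lower at 16 min for Ded1, and 0 to 1 higher for eIF4B with cycloheximide. Where a group was left with 1 library, that library was taken to vary like the other groups.

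Of the values tallied for named CUTs under an alternative, 583 kept their direction and call, 45 kept the direction and lost the call and none reversed. Most named CUTs were picked for a large called change, which makes a kept direction likely, so the tally says little on robustness. The tally does not hold every value given above. ST2421 with cycloheximide was called higher on the S. pombe scale (0.68) and was at -0.41 under TMM, not called. ST6675 in heat shock was called lower on the S. pombe scale (-0.52) and higher under TMM (0.30). No paired analysis was possible because every library carries its own letter or number. With 2 or 3 libraries a group and a median of 30.1 reads per member, small changes of low members were not detectable at this depth.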
